A study of Rattus norvegicus with 10 samples.

Results

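The genes described here build the bridge and the scaffold of the spermatid nuclear envelope: 4 SUN genes (Sun1, Sun2, Sun3 and Sun5), 3 KASH or nesprin genes (Syne1, Syne2 and Syne3), 2 lamin genes (Lmna and Lmnb2) and Dpy19l2, which anchors the acrosome to the nucleus. These 10 genes were taken by name from the 32545 genes of the deposited tables, and each name matched a single row. They were measured in round spermatids, the haploid cells that follow meiosis, of wild-type Brown Norway rats. The young group held 5 samples from rats of 4 to 6 months and the aged group 5 samples from rats of 18 to 20 months, all kept under normal conditions with free access to food and water. Germ cells were isolated by STA-PUT sedimentation, a gradient method that enriches cells by size without a marker, so cells of other kinds can remain. Nothing in the labels says that the samples came from separate animals, so every p-value below speaks only of the spread among these samples.

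SUN proteins cross the inner nuclear membrane and bind KASH proteins of the outer membrane in the space between them. The pair, called the LINC complex, couples the lamina inside the nucleus to microtubules and actin outside it. In spermatids this coupling serves the shaping and tapering of the head against the manchette, a transient skirt of microtubules, the attachment of the tail and the hold of the acrosome on the nucleus. Loss of DPY19L2 or SUN5 is a known cause of male infertility, with round-headed sperm without an acrosome for the former and with sperm whose heads and tails separate for the latter.

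The sequences upstream of the start sites are shown for 5 genes because the SUN genes differed far more among themselves in level than any of them did between the ages. RefSeq held a promoter window for 9 of the 10 members (all but Syne1), with 12 start sites in all, on the GRCr8 build; that of the deposited coordinates was not named (not given in the sources used here). Each line gives the 250 bases before a start site on the gene's strand, and capitals mark the short core TGACG, or CGTCA on its other strand, of the cAMP response element, the motif bound by CREM, an activator of spermatid genes. The motif was searched with the levels already known.
Sun3, start site 4, chr14:87947683-87947932, minus strand: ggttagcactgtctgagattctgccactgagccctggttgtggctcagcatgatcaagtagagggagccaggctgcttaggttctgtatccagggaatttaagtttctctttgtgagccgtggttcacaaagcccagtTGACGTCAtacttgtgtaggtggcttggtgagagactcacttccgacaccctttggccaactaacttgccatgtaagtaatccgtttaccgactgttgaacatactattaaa
Sun5, chr3:162815522-162815771, minus strand: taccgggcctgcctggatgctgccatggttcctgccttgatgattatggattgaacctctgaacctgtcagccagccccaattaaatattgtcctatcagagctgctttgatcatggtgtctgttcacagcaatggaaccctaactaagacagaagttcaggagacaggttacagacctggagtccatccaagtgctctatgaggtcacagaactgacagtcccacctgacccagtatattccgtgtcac
Sun1, chr12:20544283-20544532, minus strand: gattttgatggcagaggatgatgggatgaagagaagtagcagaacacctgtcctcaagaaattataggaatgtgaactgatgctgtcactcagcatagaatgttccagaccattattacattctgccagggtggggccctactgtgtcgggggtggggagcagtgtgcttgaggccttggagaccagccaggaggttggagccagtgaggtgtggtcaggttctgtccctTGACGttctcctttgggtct
Sun2, chr7:113172895-113173144, minus strand: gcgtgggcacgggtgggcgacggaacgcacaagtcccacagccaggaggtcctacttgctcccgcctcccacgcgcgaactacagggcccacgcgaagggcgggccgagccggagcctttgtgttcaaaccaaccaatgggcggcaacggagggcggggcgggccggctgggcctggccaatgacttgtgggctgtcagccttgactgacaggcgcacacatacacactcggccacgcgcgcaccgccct
Dpy19l2, chr8:31457683-31457932, minus strand: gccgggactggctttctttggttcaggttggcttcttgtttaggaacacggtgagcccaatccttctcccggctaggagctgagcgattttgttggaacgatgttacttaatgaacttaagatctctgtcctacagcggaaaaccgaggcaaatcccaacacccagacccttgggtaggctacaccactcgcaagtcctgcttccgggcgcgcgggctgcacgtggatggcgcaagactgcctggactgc
The full element TGACGTCA, which is its own reverse complement and so holds the core on both strands, was present at 1 of the 4 Sun3 start sites, with its first base 112 bases before the start. That window, start site 4, is the only Sun3 window printed here, and the other Sun3 windows held no core. Across 33469 RefSeq windows of the same length, 1.59% held the full element and 18.2% the core on either strand. Sun1 held a single core, 20 bases before its start, and the windows of Sun2, Sun5 and Dpy19l2 held neither motif, nor did those of Syne2, Syne3, Lmna and Lmnb2. The core was thus held by 2 of the 9 members, a share close to the 20.0% of 27457 RefSeq genes. The full element was held by 1 of the 9, beside 1.78% of those genes. The windows also differed in CpG content: the ratio of observed to expected CpG was 0.13 for Sun1 and for Sun5 and 0.10 for Lmna, against 0.85 for Sun2, 0.81 for Syne2, 0.78 for Lmnb2 and 0.72 for Dpy19l2, with Syne3 at 0.59 and the 4 Sun3 windows at 0.30, 0.70, 0.51 and 0.35, where the median of all windows was 0.383. Which of the Sun3 start sites was used in these cells was not tested, nor was any link between the motif and the level of a gene.

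The 10 genes kept the same order of level in all 10 libraries. From highest to lowest it ran Dpy19l2, Sun3, Sun5, Lmnb2, Sun1, Syne2, Lmna, Sun2, Syne3 and Syne1, on the FPKM scale, which is per length. Mean levels over the 10 libraries ran from 249 FPKM for Dpy19l2 to 0.620 FPKM for Syne1. The order was taken from these means, so the pairs and directions tested next were not set in advance. Each of the 9 pairs of neighbours in that order differed in the same direction in 10 of 10 libraries (exact two-sided sign-flip permutation test on log2(FPKM + 1), n = 10, adjusted p = 0.00195 for each, the smallest these permutations can give). The mean ratio between neighbours was closest to 1 for Syne2 against Lmna, at 1.31 (1.05 to 1.74 across libraries), and for Sun3 against Sun5, at 1.33 (1.22 to 1.42). The smallest ratio in a single library was 1.01, for Sun2 against Syne3, which stood at 1.48 on average and reached 2.30. Sun1 stood 3.27 times above Syne2 on average, and Syne3 stood 6.56 times above Syne1.

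**Figure D1:**
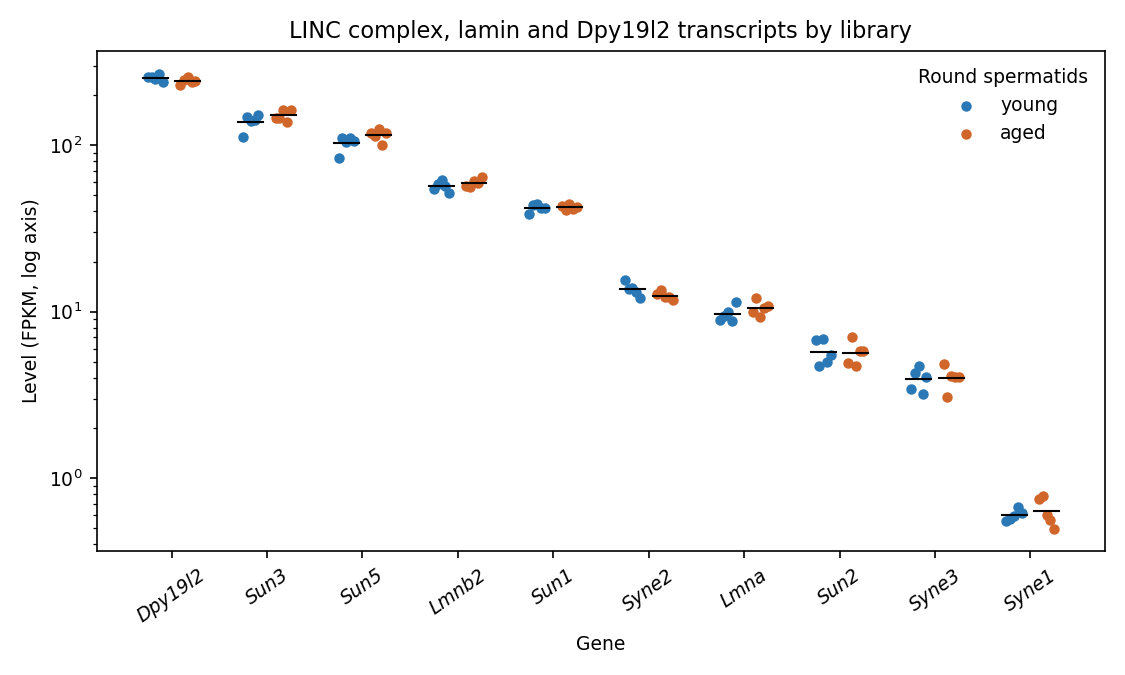
Level of each of the 10 genes in FPKM on a log axis; points are libraries, 5 young and 5 aged per gene, and black bars are group means. The genes fall in 1 order from Dpy19l2 (mean 249 FPKM) to Syne1 (mean 0.620 FPKM), while the young and aged points of each gene overlap.

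Among the 4 SUN genes the spermatid forms dominated. Sun3, a SUN gene of the testis whose protein is known to lie along the manchette, stood at 113, 147, 140.4, 142 and 151 FPKM in young replicates 1 to 5 and at 145, 146, 163, 138 and 163 FPKM in aged replicates 1 to 5. Young replicate 1 was the lowest of all libraries, and the remaining young values lay within or close to the aged range. Sun5, whose protein sits where the tail joins the head, stood at 83.4, 110.3, 104, 111 and 107 FPKM in the young and at 119, 114, 126, 99.9 and 119 FPKM in the aged libraries. Young replicate 1 was again the lowest, and 4 of the 5 aged values lay above every young value, with aged replicate 4 below 4 of the young ones. Sun1, a broadly expressed SUN gene that holds telomeres to the envelope in meiosis, was the steadiest of the 4: 38.5, 43.7, 44.3, 42.2 and 41.8 FPKM in the young and 43.4, 40.9, 44.6, 41.3 and 42.7 FPKM in the aged libraries. Sun2, its broadly expressed relative, was low, at 6.77, 4.69, 6.86, 4.96 and 5.50 FPKM in the young and 4.93, 7.09, 4.69, 5.82 and 5.84 FPKM in the aged libraries, with the high and low libraries mixed between the ages.

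Of the summed FPKM of the 4 SUN genes, Sun3 made up 47.8% ± 1.10 in young and 48.0% ± 1.08 in aged libraries and Sun5 35.6% ± 0.984 and 36.6% ± 1.15 (SD, n = 5 each). Sun1 made up 14.6% ± 0.887 and 13.6% ± 0.626, and Sun2 2.02% ± 0.531 and 1.82% ± 0.366. These shares were not tested for an age difference. A further SUN gene, Spag4 (also called Sun4), lies outside the 10 genes and did not have a steady level. It stood at 3.99 FPKM in young replicate 1 and at 3.23 FPKM in aged replicate 1, but at 63.2, 163, 124 and 136 FPKM in the other young and 161, 174.5, 111 and 113 FPKM in the other aged libraries. Spag4 was thus above both Sun3 and Sun5 in young replicate 3 and in aged replicates 2 and 3. It was far below both in young replicate 1 and aged replicate 1, and what sets those libraries apart was not tested. The shares above leave Spag4 out of the sum.

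**Figure D2:**
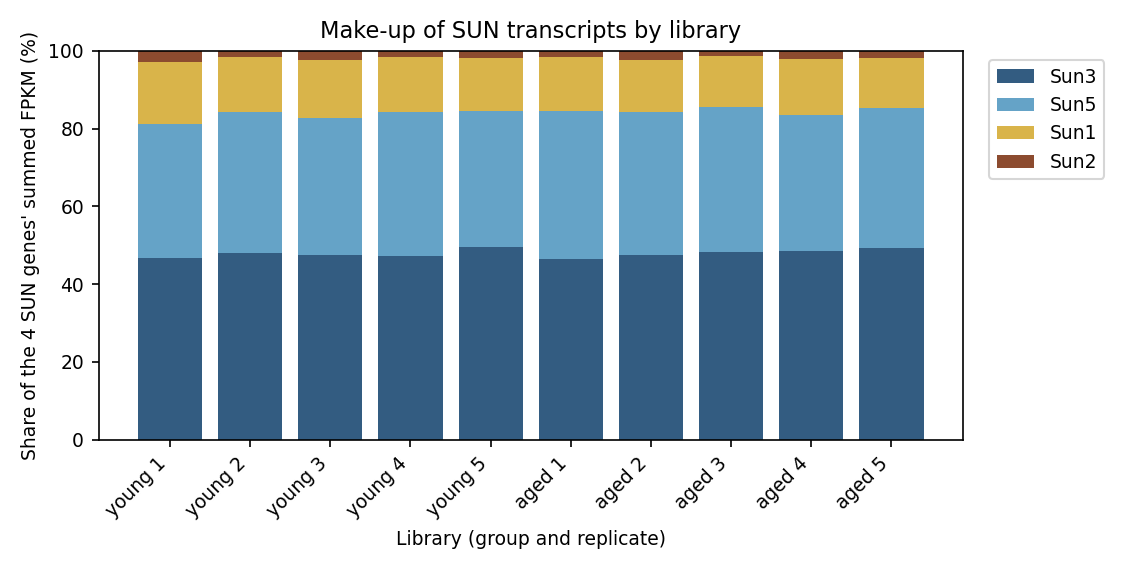
Share of each of the 4 SUN genes in their summed FPKM, in percent, 1 stacked bar per library. Sun3 keeps 46.5 to 49.6% and Sun5 34.6 to 38.0% across the 10 libraries, with Sun1 and Sun2 making up the rest.

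The 3 nesprin genes were lower than Sun3 and Sun5 on the same scale. Syne2 (nesprin-2), a giant linker to actin and to microtubule motors, carried most of the summed level of these 3 genes, 74.9% ± 3.32 in young and 72.8% ± 2.95 in aged libraries (SD, n = 5 each). It stood at 15.4, 13.6, 13.9, 13.2 and 12.01 FPKM in the young and 12.8, 13.4, 12.2, 12.3 and 11.7 FPKM in the aged libraries. Young replicate 1, the lowest library for Sun3 and Sun5, was the highest for Syne2, and the groups overlapped. Syne3 (nesprin-3), which binds plectin and so intermediate filaments, stood at 3.42, 4.30, 4.73, 3.22 and 4.08 FPKM in the young and 4.86, 3.08, 4.10, 4.04 and 4.03 FPKM in the aged libraries, with both extremes in the aged group. Syne1 (nesprin-1), the other giant linker, was the lowest of the 10 genes, at 0.557, 0.569, 0.590, 0.671 and 0.620 FPKM in the young and 0.751, 0.780, 0.601, 0.564 and 0.498 FPKM in the aged libraries. Aged replicates 1 and 2 were the highest for Syne1, while the other aged values overlapped the young ones. Its gene model in the files is 29464 bases long, so that even this low value stood on 239 to 411 fragments per library. If only a short form of Syne1 or Syne2 (20660 bases) were present, division by the full length would lower its FPKM; splice forms are not separated in these tables. The files class both gene models as processed transcripts, and the other 8 members as protein coding.

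For the lamins, the filaments that line the inner membrane, B-type transcripts exceeded the A-type. Lmnb2 stood at 54.8, 58.5, 61.4, 57.2 and 51.9 FPKM in the young and 57.0, 56.2, 61.0, 59.3 and 64.4 FPKM in the aged libraries; the highest library was aged and the lowest young, and the rest overlapped. Germ cells are known to make a short form of this gene, lamin B3, which these values cannot separate from lamin B2. Lmna, the gene of lamins A and C and of the meiotic form C2, stood at 8.88, 9.47, 9.92, 8.81 and 11.4 FPKM in the young and 10.01, 12.01, 9.24, 10.6 and 10.9 FPKM in the aged libraries. Young replicate 5 was high for its group and aged replicate 2 was the highest of all. Together with Lmnb1, the other B-type gene, which averaged 32.1 ± 2.22 FPKM in the young and 33.1 ± 2.39 FPKM in the aged libraries, the lamins summed to 98.5 ± 4.23 and 103 ± 3.32 FPKM (SD, n = 5). Lmnb2 made up 57.6% ± 1.46 and 57.7% ± 2.46 of that sum, and Lmna 9.88% ± 1.45 and 10.2% ± 0.970.

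Dpy19l2 was the most abundant of the 10 genes, above 97.0% of all genes whose mean reached 1 FPKM. It stood at 257, 257, 250.1, 269.5 and 239 FPKM in the young and 230.2, 247, 258, 239 and 243 FPKM in the aged libraries. The lowest library was aged and the highest young, with the other libraries intermixed. Its broadly expressed relatives were far lower: Dpy19l1 averaged 28.1 ± 1.14 FPKM in the young and 27.8 ± 0.454 FPKM in the aged libraries and Dpy19l4 2.94 ± 0.300 and 2.57 ± 0.239 FPKM (SD, n = 5), while Dpy19l3 averaged 0.362 FPKM over the 10 libraries.

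In the deposited coordinates, Dpy19l2 (ENSRNOG00000045585) lay on chromosome 8 from 25710472 to 25829569, minus strand, Sun3 (ENSRNOG00000005105) on chromosome 14 from 89215703 to 89238094, minus strand, and Sun5 (ENSRNOG00000027221) on chromosome 3 from 149336238 to 149356192, minus strand. Sun1 (ENSRNOG00000001299) lay on chromosome 12 from 17488487 to 17522534, minus strand, and Sun2 (ENSRNOG00000015177) on chromosome 7 from 120951560 to 120967490, minus strand. Lmnb2 (ENSRNOG00000025742) lay on chromosome 7 from 11660934 to 11675472, plus strand, and Lmna (ENSRNOG00000019638) on chromosome 2 from 187842881 to 187863582, minus strand. Syne1 (ENSRNOG00000018960) lay on chromosome 1 from 41608418 to 42077535, minus strand, Syne2 (ENSRNOG00000005323) on chromosome 6 from 98844926 to 99153551, plus strand, and Syne3 (ENSRNOG00000005287) on chromosome 6 from 128641214 to 128727374, minus strand. None of them overlapped another gene of the tables except Syne1, whose span holds a small nuclear RNA gene, U6, with a mean of 0 FPKM.

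The comparison of age groups asked whether these transcripts changed in round spermatids of aged rats. No change was called in any member. Of the 10 genes, 9 passed the filter, a mean of 1 FPKM or more, and were tested, all but Syne1. By limma with adjustment over the 12985 genes tested, 0 members passed, 0 had an unadjusted p under 0.05, where 11.9% of all tested genes did, and 0% of all tested genes passed after adjustment. The groups overlapped for all 10 members, where they did not overlap for 2.6% of the genes tested. Higher aged means were fitted for 6 of the 9 and lower ones for 3, with a median log2 difference of 0.02, beside -0.02 for all tested genes.

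Sun5 had the smallest p of the members. It averaged 103 ± 11.4 FPKM in the young and 115 ± 9.66 FPKM in the aged libraries (SD, n = 5), a log2 difference of 0.16 (95% interval -0.02 to 0.35, limma unadjusted p = 0.0767, adjusted p = 0.455). Sun3 averaged 139 ± 15.1 and 151 ± 11.4 FPKM, a log2 difference of 0.13 (-0.05 to 0.30, adjusted p = 0.512). Both values rested in part on young replicate 1: without it the log2 difference was 0.09 for Sun5 and 0.06 for Sun3. In that library the summed level of 8 round spermatid markers was 1564 FPKM, the lowest of the 10 libraries. The others ran from 1640 to 1839 FPKM. The leading markers of the list differed there: Spaca7 had its lowest value, 277 FPKM, but Hspa1l stood at 406 FPKM, below only young replicate 5. In young replicate 1 elongating spermatid markers summed to 34462 FPKM and spermatocyte markers to 883 FPKM, each below only young replicate 5. The part of the marker level in the Sun3 and Sun5 values was not tested. Syne2 averaged 13.6 ± 1.23 and 12.5 ± 0.664 FPKM, a log2 difference of -0.12 (-0.26 to 0.03, adjusted p = 0.482), and of -0.07 without young replicate 1. In bulk samples, a difference in the share of a cell type and one in RNA per cell cannot be told apart.

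Dpy19l2 had the narrowest interval: it averaged 254 ± 11.3 FPKM in the young and 243 ± 10.2 FPKM in the aged libraries, a log2 difference of -0.06 (-0.16 to 0.03, adjusted p = 0.542). Sun1 averaged 42.1 ± 2.28 and 42.6 ± 1.52 FPKM, a log2 difference of 0.02 (-0.09 to 0.12, adjusted p = 0.890). For Lmnb2, at 56.8 ± 3.63 and 59.6 ± 3.32 FPKM, the log2 difference was 0.07 (-0.05 to 0.19, adjusted p = 0.595), and it was 0.04 without young replicate 5 or without aged replicate 5. The widest intervals were those of the low genes. Sun2, at 5.75 ± 1.01 and 5.67 ± 0.947 FPKM, had a log2 difference of -0.02 (-0.28 to 0.25), and Syne3, at 3.95 ± 0.625 and 4.02 ± 0.632 FPKM, one of 0.02 (-0.23 to 0.27). For Sun1, Sun2 and Syne3 the sign of the difference turned when single libraries were left out. Syne1 was not tested and averaged 0.601 ± 0.0457 FPKM in the young and 0.639 ± 0.122 FPKM in the aged libraries.

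**Figure D3:**
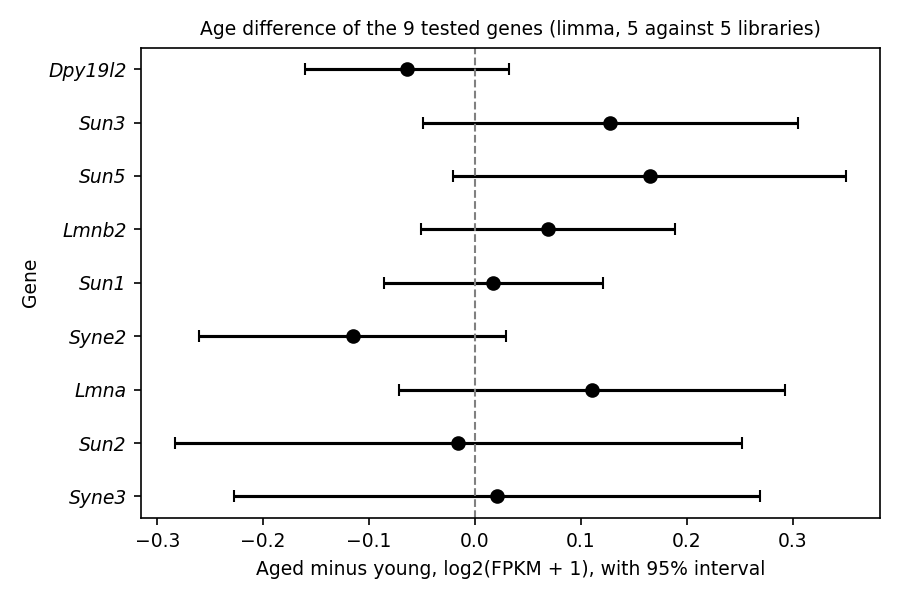
Aged minus young difference in log2(FPKM + 1) of the 9 tested genes, with points for the limma estimate over 5 young and 5 aged libraries and bars for its 95% interval. Every interval spans 0; Sun5 (0.16) and Sun3 (0.13) lie farthest from it, and Syne2 (-0.12) farthest on the lower side.

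Lmna averaged 9.70 ± 1.06 FPKM in the young and 10.5 ± 1.03 FPKM in the aged libraries (SD, n = 5), a log2 difference of 0.11 (95% interval -0.07 to 0.29, limma adjusted p = 0.575), and of 0.07 without aged replicate 2. Its level was set beside markers of somatic cells. A score of the markers of Sertoli, peritubular, Leydig and macrophage cells ran from -0.66 to -0.10 in young and from -0.14 to 1.59 in aged libraries, with aged replicate 2 the highest and aged replicate 1 next, at 0.65. Over the 10 libraries Lmna and the score had Pearson's r = 0.71 (permutation p = 0.0146, adjusted 0.0918 over the 10 members) and Spearman's rho = 0.78 (permutation p = 0.0101, adjusted 0.0893). Without aged replicates 1 and 2, the libraries farthest from the median score, r was 0.72. Neither value passed after adjustment. Dpy19l2 ran the other way, with r = -0.52 (permutation p = 0.126, adjusted 0.419) and rho = -0.75 (permutation p = 0.0179, adjusted 0.0893), and r = -0.76 without the same libraries. Syne1 had r = 0.72 (permutation p = 0.0184, adjusted 0.0918) but rho = 0.33 (permutation p = 0.345, adjusted 0.641), and r = -0.28 without them, so that its relation rested on aged replicates 1 and 2. For Syne2, r went from -0.17 (permutation p = 0.611, adjusted 0.708) to -0.77 without the same libraries. Values over the 8 libraries left could thus move widely. With the score as a covariate the log2 difference of Lmna between ages was -0.02 (limma adjusted p = 0.983). In the same fit that of Sun2 went from -0.02 to -0.18 and that of Lmnb2 from 0.07 to 0.15. The score was itself higher in most aged libraries, so this fit cannot separate age from somatic RNA. The part of somatic RNA in the Lmna level was not tested.

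Marker lists were set beside the label of round spermatids. Round spermatid markers, of which 8 of 9 matched, summed to 1564 to 1839 FPKM in young and 1640 to 1801 FPKM in aged libraries, led by Hspa1l and Spaca7. Spermatocyte markers (led by Pgk2 and Ccna1) summed to 815 to 921 and 738 to 848 FPKM, and spermatogonial ones (led by Uchl1 and Gfra1) to 42.1 to 61.4 and 45.2 to 51.4 FPKM. Pgk2 alone averaged 530 FPKM in the young and 489 FPKM in the aged libraries. Elongating spermatid markers (led by Prm1 and Tnp2) summed to 23989 to 38704 and 24145 to 31571 FPKM. Sums of different lists do not give shares of cell types, nor do they show that cells of each named type were present. Whether each list is confined to its cell type was not tested. Somatic sums were higher in the aged group: Leydig cell markers (led by Insl3 and Cyp17a1) at 5.13 to 8.28 against 10.8 to 120.2 FPKM, peritubular ones (led by Acta2 and Myh11) at 69.1 to 102 against 103 to 240.2 FPKM, Sertoli cell ones (led by Clu and Vim) at 24.8 to 32.5 against 31.7 to 132 FPKM and macrophage ones (led by Apoe and Adgre1) at 19.8 to 50.8 against 39.2 to 393 FPKM. Aged replicate 2 set each of these upper limits and aged replicate 1 came next, at 53.5, 130.5, 47.8 and 136 FPKM in the same order; without both, the aged sums reached 16.8, 121, 41.5 and 52.9 FPKM. Within the macrophage list, Apoe made up 280.2 FPKM of the sum in aged replicate 2, while Adgre1 was lower in the aged group, at 7.16 ± 0.884 FPKM in the young and 5.80 ± 0.672 FPKM in the aged libraries (SD, n = 5). Endothelial (Vwf) and erythroid (Hba1 and Hbb) sums reached 5.76 and 20.1 FPKM. No listed marker was at 0 in every library, but defining ones such as Sox9, Amh and Fshr of Sertoli cells and Star and Cyp11a1 of Leydig cells averaged under 1 FPKM.

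The spread between libraries is set here beside the counting error, which is only a floor for separate samples. Over the 10 libraries the coefficient of variation was 4.36% for Sun1 and 4.70% for Dpy19l2, where counting alone gives 1.86% and 0.831% at their mean fragment number. It was 9.83% for Sun3 and 10.9% for Sun5, where counting gives 2.08% each. The low genes varied most, with 16.2% for Sun2, 14.9% for Syne3 and 14.4% for Syne1, against counting errors of 6.45%, 7.02% and 5.74%. Sun2 rested on 202 to 296 and Syne3 on 155 to 277 fragments per library, and Dpy19l2 on 12823 to 15880.

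**Figure D4:**
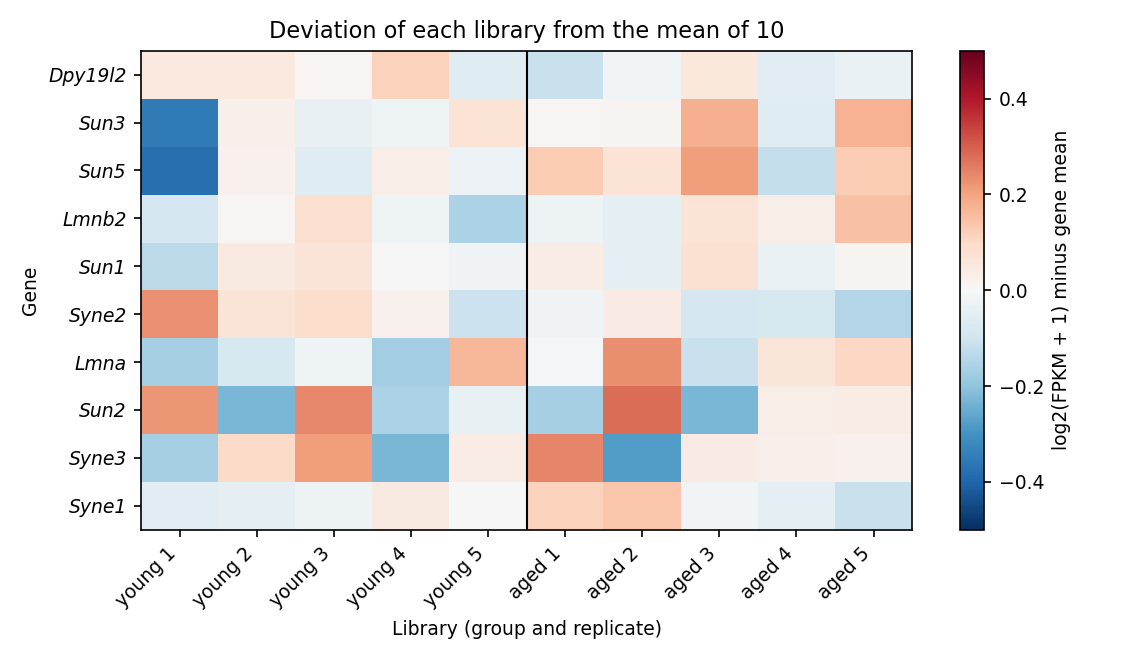
Deviation of each library (columns, young left of the line and aged right of it) from the gene's mean over 10 libraries in log2(FPKM + 1), by colour. Young replicate 1 stands lowest for Sun3 and Sun5 and highest for Syne2, and no row separates the ages.

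Among the 45 pairs of members, Sun3 and Sun5 followed each other most closely across libraries. Pearson's r was 0.92 (permutation p = 0.00087, adjusted 0.0391 over the 45 pairs) and Spearman's rho 0.79 (permutation p = 0.00877, adjusted 0.304). Within the young libraries r was 0.95 and within the aged ones 0.81, each over only 5 libraries. Without young replicate 1 and aged replicate 3, the farthest from the median of Sun3, r was 0.63, so the relation rested in part on those libraries. Sun3 and Syne2 ran in opposite directions (r = -0.84, permutation p = 0.00419, adjusted 0.0943; rho = -0.67, permutation p = 0.0392, adjusted 0.441), and r was -0.61 without the same 2 libraries. Of the 45 pairs, 1 passed by Pearson's r and 0 by Spearman's rho. A value near that of Sun3 and Sun5 was not particular to the pair. Of 7822 other genes compared with Sun5, the 100th most alike still reached r = 0.92. The libraries share their scaling to a total, so these relations are not independent of it.

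**Figure D5:**
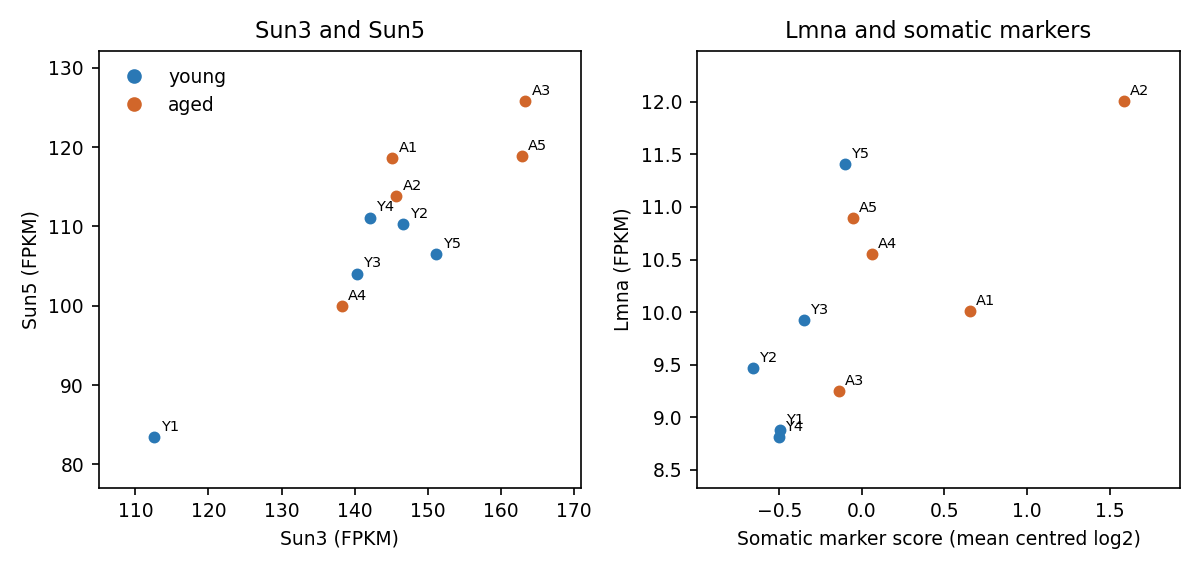
Left, Sun5 against Sun3 in FPKM; right, Lmna in FPKM against the somatic marker score (mean centred log2), with 1 point per library named by group (Y young, A aged) and replicate. Young replicate 1 lies apart at 113 FPKM of Sun3 and 83.4 FPKM of Sun5, and aged replicate 2 has both the highest score (1.59) and the highest Lmna (12.01 FPKM).

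The pattern of a few members over the 10 libraries was set beside that of 7822 other genes whose mean was 5 FPKM or more, by Pearson's r of log2(FPKM + 1). The 3 genes most like Sun5 were Tesk2, a testis kinase (r = 0.99), RGD1310212 (r = 0.99) and Pex3, of peroxisome assembly (r = 0.98). For Dpy19l2 they were Paqr3 (r = 0.98), Ermard (r = 0.97) and Zfp386 (r = 0.97). For Lmna they were AABR07053435.1 (r = 0.93), LOC685520 (r = 0.92) and AABR07034673.1 (r = 0.91). The 100th gene in each ranking still reached r = 0.92 for Sun5, 0.85 for Dpy19l2 and 0.73 for Lmna, so the top of each list is not set apart, and all share the libraries and their scaling.

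Genes that work beside the members gave a similar picture. For further genes of the LINC complex and nuclear envelope 24 rows were tested, with Tor1aip2 counted by more than a single row. Of these, 12 had higher and 12 lower aged means, with a median log2 difference of -0.01. An unadjusted p under 0.05 was reached by 0 of the 24, beside 11.9% of all tested genes. Ccdc155 (also called Kash5), the KASH partner that joins meiotic telomeres to dynein, averaged 58.1 ± 2.63 FPKM in the young and 60.1 ± 5.27 FPKM in the aged libraries (SD, n = 5), and Spag4 averaged 98.1 ± 64.1 and 113 ± 67.3 FPKM. Enzymes that process prelamin A were measured too: the subunit Fnta of farnesyltransferase averaged 83.9 ± 4.46 and 80.8 ± 3.74 FPKM, the methyltransferase Icmt 52.2 ± 4.20 and 55.1 ± 2.14 FPKM and the protease Zmpste24 9.14 ± 0.428 and 8.62 ± 0.412 FPKM. Emd, the gene of emerin, an inner membrane partner of lamin A, stood at 3.02 ± 0.767 and 3.64 ± 1.01 FPKM and Lbr, the lamin B receptor, at 6.23 ± 0.670 and 5.91 ± 0.721 FPKM. Syne4 (nesprin-4) averaged 0.0125 FPKM over the 10 libraries.

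In the list of head to tail coupling genes, to which Sun5 is tied by function, 5 of 17 tested genes had higher and 12 lower aged means, with a median log2 difference of -0.02. At an unadjusted p under 0.05 there was 1 on each side, a share of the 17 close to the 11.9% of all tested genes. Dnajb13, a chaperone-like protein of the flagellum, averaged 85.3 ± 5.43 FPKM in the young and 94.7 ± 5.16 FPKM in the aged libraries (SD, n = 5), a log2 difference of 0.15 (limma adjusted p = 0.363), and Hook1, a linker of the manchette, 92.5 ± 1.34 and 85.3 ± 5.04 FPKM, one of -0.12 (limma adjusted p = 0.367). Of 21 acroplaxome and acrosome attachment genes, where Dpy19l2 works, 11 had higher and 10 lower aged means, with a median of 0.02. The lowest p was that of Gopc, a Golgi protein needed for acrosome assembly, at 4.95 ± 0.536 and 4.23 ± 0.350 FPKM (log2 difference -0.19, limma adjusted p = 0.412). Fam209a, the gene of a reported partner of DPY19L2, averaged 204 ± 28.1 and 232 ± 22.2 FPKM, a log2 difference of 0.19 (limma adjusted p = 0.464). Of 30 nuclear pore genes, 9 had higher and 21 lower aged means, with a median of -0.05; Nup155, a scaffold nucleoporin, averaged 21.2 ± 1.58 and 18.9 ± 0.816 FPKM, and was the 1 gene of these 30 with an unadjusted p under 0.05 (limma adjusted p = 0.363), beside 11.9% of all tested genes. The groups did not overlap for 1 of the 30, beside 2.6% of all tested genes. No gene of these lists passed after adjustment over all tested genes.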

How the data were processed

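Round spermatid RNA from 2 age groups of rats was analysed from 1 file per sample. The authors deposited FPKM values (fragments scaled to gene length and to sequencing depth) for the same 32545 genes in each sample, per the file headers. HISAT2 2.0.5 and featureCounts 1.5.0-p3 stand, with no role or setting, in the submitters' processing notes; build and strandedness were left unstated (not given in the sources used here). Whole fragments were recovered from FPKM and gene length; all values above 0 came out whole within 0.001 (100%), and the totals were 14488222 to 18203223 per library.

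Aged and young libraries were compared with limma 3.58.1 in R 4.3.3 (eBayes with a trend, two-sided) on log2(FPKM + 1), over 12985 genes whose mean reached 1 FPKM, with Benjamini-Hochberg adjustment over all of them and a threshold of 0.05. On this scale the change of a low gene is understated. The fit was tested on simulated data. The order of the genes by level, taken from the same libraries, was tested with an exact sign-flip permutation test over libraries. Correlations used 100000 permutations.

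The members and the gene lists were chosen with earlier results of these data known. All 10 members are named; from each other pathway list up to 3 genes with the smallest unadjusted p under 0.05 are named, or its first 2 tested genes where there was none; from each marker list its 2 genes of the highest level. Other genes named were chosen after their values were seen. Alternatives were a pseudocount of 0.1, other filters and scalings, limma's voom, robust eBayes, the replicate block, left-out libraries and a covariate of somatic markers. Genes in near-identical copies, on overlapping positions or on opposite strands cannot be told apart by these gene-level values, and neither can splice forms of 1 gene.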

Additional observations from a re-analysis of the deposited data

Results flagged for a closer look

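Groups of 5 libraries were searched for a library whose gap to its nearest neighbour exceeded 0.71 of the group's range, over 37 named genes and 74 groups, where chance alone picks out about 1 in 20 groups. Young replicate 1 stood apart as the lowest of its group for Sun3 (113 FPKM, the others at 140.4 to 151 FPKM) and for Sun5 (83.4 FPKM, the others at 104 to 111 FPKM). It was also the highest of its group for Nup155, a nuclear pore gene (24.0 FPKM, the others at 20.2 to 20.9 FPKM). The other 7 cases were markers of other cells in aged replicate 2, which was the highest of its group for Clu (75.9 FPKM), Vim (39.4 FPKM), Acta2 (88.1 FPKM), Apoe (280.2 FPKM), Vwf (2.18 FPKM), Hba1 (13.2 FPKM) and Hbb (6.56 FPKM). The same library had the highest Lmna and Sun2 of the 10, at 12.01 and 7.09 FPKM.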

How the results depend on the processing

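No member passed after adjustment under any of the 20 alternatives; their lowest adjusted p was 0.249, for Syne2 without young replicate 5. By limma, the count of members with an unadjusted p under 0.05 was 1 with voom (Sun5, limma adjusted p = 0.4005) and 1 with the somatic covariate (Lmnb2, limma adjusted p = 0.918), and 0 to 1 over the fits that left out 1 library: Syne2 without young replicate 5 (limma adjusted p = 0.249) and Sun5 without aged replicate 4 (limma adjusted p = 0.3399). Over all genes 0 to 1 passed in those fits, and 1155 to 2183 had an unadjusted p under 0.05, against 1544; that count was 2379 with no filter on low values, 887 with a filter at 5 FPKM, 972 without both aged replicates 1 and 2 and 592 with the somatic covariate. Lmna changed sign with the somatic covariate (-0.0229), Sun2 with voom (0.00293), and leaving out 1 library gave log2 differences of -0.0140 to 0.0360 for Sun1, -0.0882 to 0.0418 for Sun2 and -0.0377 to 0.0929 for Syne3; the cause was not tested. Nothing in the labels says that the replicate numbers pair the libraries. Over all tested genes, deviations of same-numbered libraries correlated at -0.16 to 0.05, and only young replicate 3 correlated best with its own number. Such a correlation over all genes cannot tell whether same-numbered libraries shared a batch. With the replicate block, limma passed 0 members; its unadjusted p was under 0.05 for 1255 genes, and the log2 difference of Sun5 was 0.16 (limma adjusted p = 0.551). In either age alone, 0 of the 9 neighbour pairs of the level order could pass, since 5 libraries allow no p below 0.0625. The order itself was the same, and 9 passed in every fit that left out 1 library. Both outcomes were fixed in advance, since all 10 libraries share the order, and add no support to it. TPM scaling moved the share of higher genes among those with an unadjusted p under 0.05 from 719 of 1544 to 853 of 1394, and voom to 964 of 1536. Low fragment numbers limit Sun2, Syne3 and Syne1.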
